A study of Mus musculus with 235 samples.

Results

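Transporters for amino acids and for the transmitters made from them were followed across 8 brain regions of mice given dexamethasone, a synthetic glucocorticoid. The rule for the genes uses name and level, and was set with earlier results of these data known: genes with a symbol of the families Slc1a, Slc3a, Slc6a, Slc7a, Slc17a, Slc32a, Slc36a, Slc38a or Slc43a and a mean of at least 2 counts per 1000000 (CPM) over all libraries. Of 27998 genes counted, 76 reported here carried such a symbol and 48 of them reached that level. Slc43a3 was the lowest gene inside the threshold, at 2.20 CPM, and Slc38a4 the highest outside it, at 1.63 CPM. Slc7a6os entered by its name only, as it is a neighbour of Slc7a6 and not a transporter.

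Tissue was punched from the regions labelled PFC, AMY, PVN, CER, dCA1, vCA1, dDG and vDG in adult male C57Bl/6 mice of 3 months. The 15 treated animals had received 10 mg per kg dexamethasone by intraperitoneal injection and the 15 vehicle animals 0.9% saline, and brains were taken after perfusion at 4 h. Each region gave 13 to 15 libraries per arm, 118 of vehicle and 117 of treated animals in all, and the 8 regions come from the same animals. Each count is a 3' end tag carrying a unique molecular identifier, and CPM here are counts scaled by library totals with TMM factors.

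Fast transmission in the brain depends on carriers of this kind. Vesicular carriers fill synaptic vesicles with glutamate, GABA or glycine, and plasma membrane carriers of the SLC1 and SLC6 families then remove the transmitter from the cleft, much of it into astrocytes. SLC38 carriers move glutamine between glia and neurons, and SLC7 light chains, most of them paired with the heavy chain encoded by Slc3a2, exchange neutral, basic and sulfur amino acids across the membrane and the blood-brain barrier.

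Library totals ran from 268538 to 1451422 counts, and 3 counts, the limit that a count of 0 allows, were worth 2.07 to 11.2 CPM depending on the library. The drug response was present in every region: Fkbp5, Tsc22d3 and Sgk1, standard glucocorticoid targets, rose in 8 of 8 regions each, by 1.64 to 2.79, 0.85 to 1.39 and 0.64 to 1.27 on the log2 scale. The label CER was not matched by markers of cerebellar cortex, since Gabra6 had 0 counts in all 15 vehicle CER libraries, while Tph2, of serotonin neurons, averaged 83.9 CPM there and 1.04 to 2.33 CPM in the other 7 regions. Gabra6 reached 10 CPM or more in 10 libraries, 7 of them from vDG. The marker list of dentate granule cells did not separate dCA1 from dDG beyond the spread of vehicle libraries, at 6.65 ± 0.52 and 6.28 ± 1.01 (mean log2(CPM + 1), SD, n = 15 each). In bulk punches, fewer cells of a type and less RNA per cell cannot be told apart.

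Of the 40 members that passed the filter on low counts in the vehicle libraries, 35 differed among regions (edgeR quasi-likelihood F test with animal as a block, adjusted p under 0.05), beside 73.3% of all genes tested. The map of regional differences shows wide contrasts for Slc17a6 and Slc17a7, with 18.9-fold and 16.6-fold from the lowest to the highest region mean. Slc7a3 (12.0-fold), Slc6a13 (9.95-fold) and Slc6a9 (8.95-fold) followed. Against the mean of the other 7 regions, 25 of 40 members passed in CER (47.9% of all genes), 25 in PVN (41.1%), 24 in PFC (39.5%), 20 in dCA1 (39.1%), 20 in dDG (32.8%), 14 in vCA1 (19.7%), 12 in AMY (25.2%) and 8 in vDG (10.6%). The members' share lay above that of all genes in each region, which is a description of these counts and not a test of the family. Mean RNA integrity number (RIN) was 7.75 in vehicle PFC libraries and 5.91 to 6.69 in the other vehicle groups. The PFC calls of Slc7a10, Slc38a2 and Slc36a4 were each lost in 1 of 4 alternatives (edgeR, highest adjusted p 0.683, 0.113 and 0.0777). RIN as a covariate was 1 of these 4. Calls of Slc3a2 in AMY, Slc7a2 in dCA1, Slc7a11 in dDG and Slc38a9 in vDG were also lost in some.

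**Figure D1:**
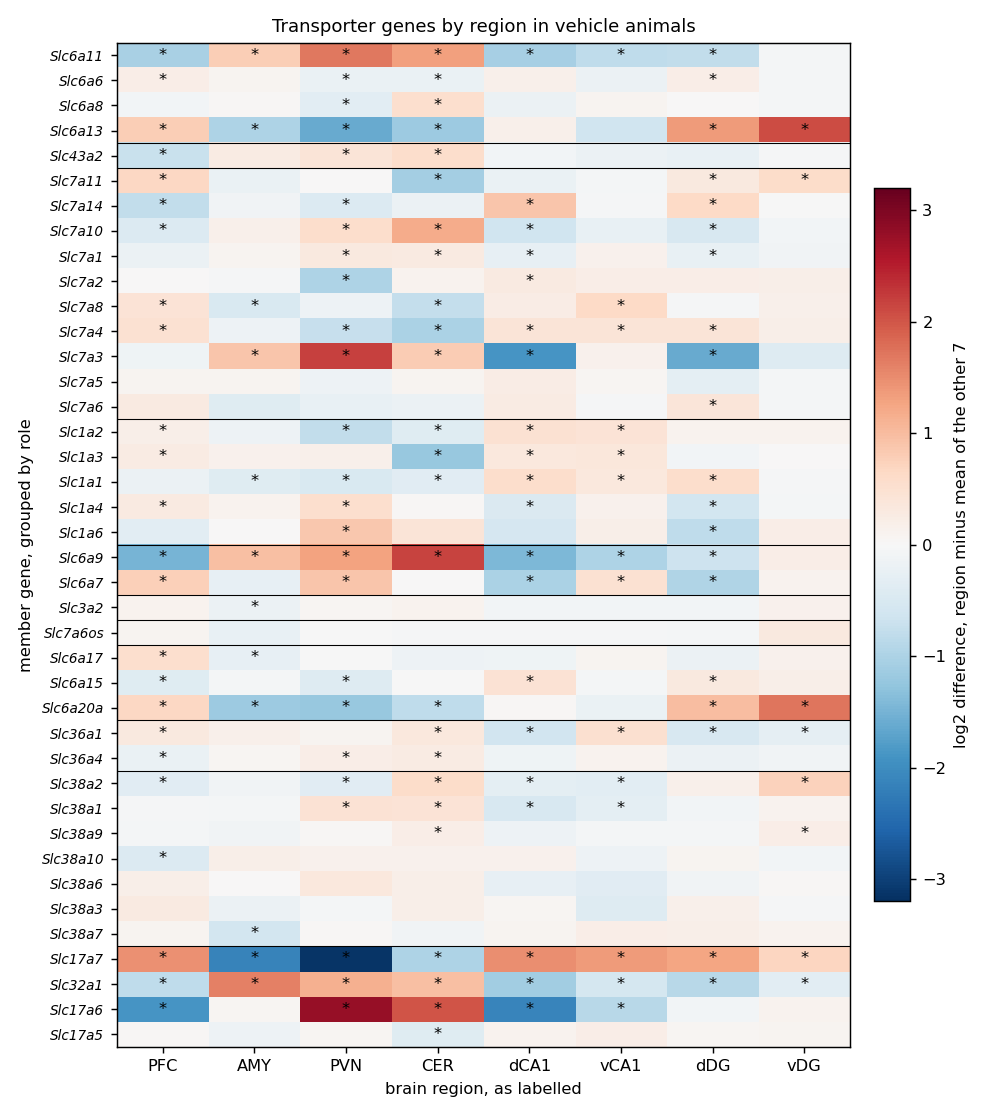
Log2 difference between each region and the mean of the other 7 in vehicle libraries (colour; columns are regions, rows are the 40 members tested, with lines between role groups). Stars mark an adjusted p under 0.05. Slc17a6 and Slc17a7 take opposite colours in PVN, CER, PFC, dCA1 and vCA1, and Slc6a13 and Slc6a20a are highest in vDG.

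The main vesicular glutamate transporters had opposite regional levels. Slc17a7, which encodes VGLUT1 of cortical and hippocampal glutamate neurons, stood at 288 ± 66.5 CPM in PFC (SD, n = 15), 297 ± 66.1 in dCA1 (n = 15) and 269 ± 52.3 in vCA1 (n = 14). In PVN it was at 18.0 ± 6.81 CPM (n = 14), with single libraries from 4.35 to 28.8 CPM, so no PVN library reached the lowest PFC library at 199 CPM. Its log2 difference from the other regions was -3.13 in PVN and -2.14 in AMY, and 1.46 in PFC, 1.50 in dCA1, 1.35 in vCA1 and 1.25 in dDG, all past the threshold. Slc17a6, which encodes VGLUT2 of subcortical glutamate neurons, was at 270 ± 88.1 CPM in PVN and 177 ± 58.8 in CER (log2 differences of 2.79 and 2.01), against 16.7 ± 9.99 in PFC and 14.3 ± 10.5 in dCA1 (log2 differences of -1.90 and -2.12). The levels of Slc17a7 in dCA1, PFC and vCA1 did not separate beyond their spread. AMY libraries spanned 2.12 to 128 CPM of Slc17a7, and the list of excitatory forebrain neurons spanned 1254 to 4172 CPM summed over its 6 genes, Slc17a7 among them, in the same libraries.

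Slc32a1, the vesicular carrier of GABA and glycine, was highest in AMY at 191 ± 25.6 CPM, with a log2 difference of 1.62 (SE 0.09, adjusted p = 2.28e-31). PVN at 143 ± 37.4 CPM and CER at 131 ± 42.2 CPM followed, and these neighbours did not separate beyond their spread. The other 5 regions lay between 38.1 and 61.3 CPM. Slc17a5, the lysosomal sialic acid carrier, varied 1.44-fold from its lowest to its highest region mean. Slc17a8, which encodes VGLUT3, was below the filter and reached 10.2 ± 10.6 CPM in CER, with 2 of 15 libraries at 0, and 0.79 to 2.69 CPM elsewhere.

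Slc6a9, the glycine transporter GlyT1, was at 225 ± 52.9 CPM in CER against 25.1 ± 10.6 in PFC and 25.3 ± 9.79 in dCA1, and its lowest CER library, at 144 CPM, lay above the highest of PFC, at 54.5 CPM. Slc6a5, the neuronal glycine transporter GlyT2, averaged 27.4 ± 21.8 CPM in CER and 3.26 CPM or less in each of the other 7 regions. Slc6a11, the astrocyte GABA transporter GAT-3, was at 1086 ± 207 CPM in PVN and 916 ± 236 in CER, and at 211 to 256 CPM in PFC, dCA1, vCA1 and dDG.

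Slc6a13, the GABA and taurine transporter GAT-2 of meninges and vessels, and Slc6a20a, a proline carrier whose close copy Slc6a20b could share its tags, were both highest in vDG. Slc6a13 averaged 29.8 ± 18.6 CPM in vDG (log2 difference 2.09, SE 0.20) and 18.1 ± 10.3 in dDG (log2 difference 1.36), against 2.99 ± 2.50 in PVN. Slc6a20a averaged 65.9 ± 32.4 CPM in vDG and 40.0 ± 18.0 in dDG, against 10.7 ± 5.78 in AMY. The list of 9 pericyte and meninges genes was also highest in vDG vehicle libraries, at 4.96 ± 0.49, and next in dDG at 4.66 ± 0.73, against 3.76 to 4.29 in the other regions. Its part in both genes was not tested.

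Among glutamate uptake carriers, Slc1a2 (GLT-1), the main astrocyte transporter, ranged from 2144 ± 298 CPM in PVN to 4710 ± 1630 in dCA1. Slc1a3 (GLAST) was lowest in CER, at 372 ± 99.7 CPM, and no CER library, the highest at 588 CPM, reached the lowest of PFC, at 708 CPM. The remaining regions held 735 to 972 CPM of Slc1a3. Slc1a1 (EAAC1), of neurons, was highest in dCA1 with a log2 difference of 0.57. It shares 42.6% of its exon bases with 4430402I18Rik on the other strand, and tags of such partners cannot be told apart without a stated strand setting.

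SLC7 carriers differed by region as well. Slc7a3, a transporter of arginine and lysine, was at 71.1 ± 12.2 CPM in PVN and 5.95 ± 3.81 in dCA1, and its lowest PVN library, at 45.4 CPM, lay above the highest dCA1 library, at 15.2 CPM. Slc7a14, a lysosomal member, was highest in dCA1 at 198 ± 57.3 CPM (log2 difference 0.89). Slc7a8, the light chain LAT2, was highest in vCA1 (log2 difference 0.64). Slc7a10, a carrier of small neutral amino acids including serine, was highest in CER at 120 ± 47.2 CPM, and shares 17.9% of its exon bases with Lrp3. Slc7a5, the LAT1 light chain of the blood-brain barrier, did not pass among regions, at 15.1 to 23.1 CPM, and neither did Slc38a3, Slc38a6, Slc38a7 and Slc7a6os. In AMY, Slc6a9 (log2 difference 0.95) and Slc7a3 (0.90) followed Slc32a1 among the members called higher. Slc7a3 was the lowest called member of dDG, at -1.60, and Slc6a9 that of vCA1, with a mean of 33.3 CPM. In vDG, Slc38a2 stood higher (log2 difference 0.74) and Slc32a1 lower (-0.34), and in PFC Slc6a13 was higher (0.79). Slc36a1, a lysosomal proton-coupled carrier, was highest in vCA1 (log2 difference 0.50), and the proline transporter Slc6a7 was higher in PFC (0.76) and PVN (0.88).

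The monoamine transporters were detected in few libraries. Slc6a4, the serotonin transporter, had counts in 90 libraries and averaged 49.7 ± 71.9 CPM in vehicle CER libraries, from 0 to 285 CPM, against at most 1.17 CPM as a mean elsewhere. Slc6a3, the dopamine transporter, averaged 30.7 ± 102 CPM in vehicle CER libraries, where 1 library held 400 CPM and the median was 1.59 CPM. Fev and Tph2, of serotonin neurons, averaged 11.9 and 83.9 CPM in the same 15 libraries, values that were chosen after they were seen.

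Dexamethasone was then compared with vehicle within each region. Across 297 tests of 42 members, 14 passed (edgeR quasi-likelihood test, Benjamini-Hochberg adjusted over all genes of a region), 5 upward and 9 downward, and they belonged to 5 genes. By region the count was 4 of 39 in PFC (6.14% of all genes), 2 of 35 in AMY (5.61%), 1 of 38 in PVN (5.67%), 1 of 39 in CER (6.18%), 2 of 34 in dCA1 (4.72%), 1 of 38 in vCA1 (5.46%), 2 of 35 in dDG (3.65%) and 1 of 39 in vDG (3.93%). The members' shares, from 2.56% in CER and vDG to 10.3% in PFC, lie near the background and are no result about the family. The filter on low counts was passed by 32 members in all 8 regions and by 6 members in none, and 37 members were tested and passed in no region.

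**Figure D2:**
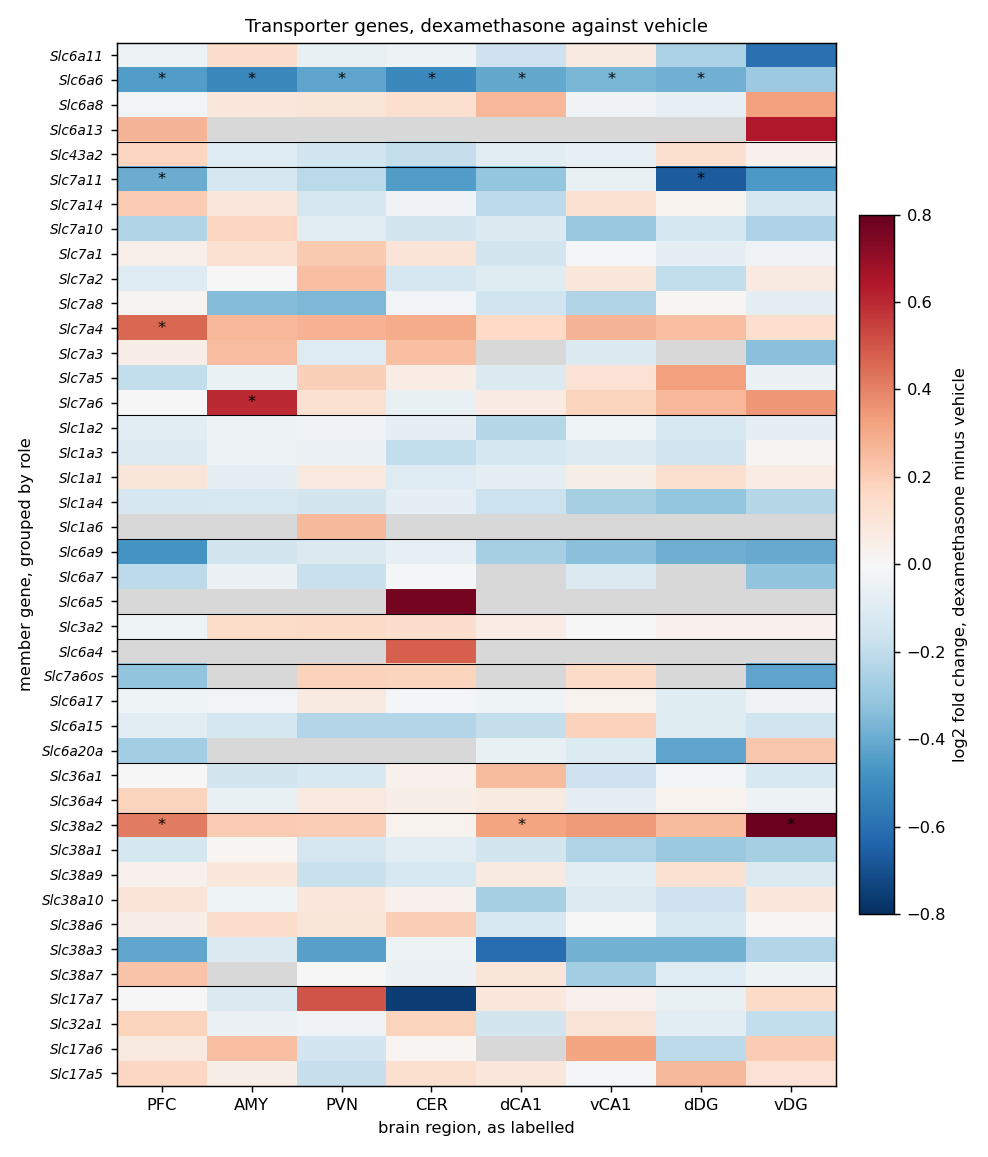
Log2 fold change of dexamethasone against vehicle (colour) for the 42 members tested in at least 1 region (rows, grouped by role) in 8 regions (columns). Stars mark an adjusted p under 0.05 and grey cells were not tested. The row of Slc6a6 is blue throughout and that of Slc7a4 red throughout, and 37 rows carry no star.

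Sequences upstream of some members that moved are given for reference, as promoters of 300 bases from RefSeq on GRCm38.p6. Of the 48 members 36 had such a window, while Slc6a6, Slc7a4 and Slc38a3 had none. The window of Slc7a11, which fell, lies on the minus strand at chr3:50443564-50443863, and that of Slc38a2, which rose, on the minus strand at chr15:96699679-96699978. The window of Slc1a3 (minus strand, chr15:8710758-8711057) is added because it holds a short glucocorticoid element, so it was chosen by its letters. Windows of Slc1a4, Slc6a9, Slc7a6 and Slc7a8, which also moved, are not printed. Capitals mark matches to AGAACA, a 6-base element of the glucocorticoid receptor, or to TGATGCAA, an amino acid response element, on either strand:
Slc7a11: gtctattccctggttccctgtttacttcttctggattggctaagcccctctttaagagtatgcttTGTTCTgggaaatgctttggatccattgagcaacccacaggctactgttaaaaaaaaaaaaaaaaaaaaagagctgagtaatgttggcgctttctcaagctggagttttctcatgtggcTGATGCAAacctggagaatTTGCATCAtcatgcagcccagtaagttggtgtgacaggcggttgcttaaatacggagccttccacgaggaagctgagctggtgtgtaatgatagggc
Slc38a2: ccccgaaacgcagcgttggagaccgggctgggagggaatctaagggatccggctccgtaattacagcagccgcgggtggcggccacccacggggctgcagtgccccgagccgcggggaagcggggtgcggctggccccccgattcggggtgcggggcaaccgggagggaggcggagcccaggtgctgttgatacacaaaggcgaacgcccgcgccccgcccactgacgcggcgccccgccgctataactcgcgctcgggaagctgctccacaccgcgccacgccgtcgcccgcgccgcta
Slc1a3: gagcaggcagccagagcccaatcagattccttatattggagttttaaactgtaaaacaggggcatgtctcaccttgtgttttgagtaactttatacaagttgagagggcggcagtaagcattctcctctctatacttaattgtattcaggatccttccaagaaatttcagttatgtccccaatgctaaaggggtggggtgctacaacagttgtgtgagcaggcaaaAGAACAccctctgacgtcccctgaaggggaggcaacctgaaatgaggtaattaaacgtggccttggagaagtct

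The Slc7a11 window holds 1 match to AGAACA, beginning at base -185 from the annotated start, and TGATGCAA at bases -66 and -47 in opposite orientations. AGAACA occurred in 5 of the 47 member windows, of Slc1a3, Slc36a1, Slc6a13, Slc7a1 and Slc7a11, and in 19.0% of all 32851 windows. Slc36a1, Slc6a13 and Slc7a1 passed in no region and not in the mean response. The full glucocorticoid response element, searched as AGAACA, 3 free bases and TGTTCT, occurred in 0 member windows and 3 windows in all. It was too rare for its absence from member windows to be read. TGATGCAA, added after the Slc7a11 letters were seen, occurred in 2 member windows, of Slc7a11 and Slc1a4, and in 0.895% of all windows. The related TGATGNAAT occurred in 0 member windows (0.965% of all), TGACGTCA in 1, that of Slc38a6 (1.79%), and CACGTG in 6 (7.15%). A match is a description of letters, not a site in use. The Slc38a2 window held none of these motifs and was 73.0% G and C, against a median of 52.7% over all windows.

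Slc6a6, the taurine transporter TauT, fell in 7 of 8 regions. It lies on chromosome 6 at 91684053 to 91759066 (ENSMUSG00000030096). In CER its level went from a median of 264 CPM in vehicle animals (lowest 183, highest 379) to 183 CPM after dexamethasone (lowest 101, highest 271), and 7 of 15 treated libraries were below every vehicle library. The log2 fold change there was -0.52 (SE 0.12, adjusted p = 0.00215). In AMY the medians were 312 CPM (207 to 388) and 213 CPM (136 to 315), and the log2 fold change was -0.51 (SE 0.10, adjusted p = 0.000622). The arms overlapped in every region, but 14 of 15 treated libraries lay below the vehicle median in AMY and CER.

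In PFC, Slc6a6 went from 343 ± 63.2 CPM (SD, n = 15) to 253 ± 55.4 (n = 14), a log2 fold change of -0.44, and in PVN from 265 ± 50.1 (n = 14) to 198 ± 36.5 (n = 15), a change of -0.42, with all 15 treated PVN libraries below the vehicle median. The hippocampal punches showed smaller differences, of -0.41 in dCA1 (adjusted p = 0.0295), -0.39 in dDG (0.0352) and -0.37 in vCA1 (0.0444). In vDG the means were 295 ± 49.0 and 241 ± 41.5 CPM, and the difference of -0.29 missed the threshold (edgeR, adjusted p = 0.0662). With the replicate number as a block it passed, at -0.29 (adjusted p = 0.0343). That the sizes differ between regions was not shown, as the test of the difference gave an adjusted p of 1.00. Of the 5 punching dates in the labels, 4 had at least 2 libraries per arm in each region, and the direction was the same on 4 of 4 in 7 regions and on 3 of 4 in vDG. Punching date 2, with 1 vehicle library per region, was left out. Without libraries of RNA integrity number (RIN) under 5 the calls in dDG and vCA1 were lost, at -0.40 and -0.37 (adjusted p = 0.0792 and 0.0661), and adjusted p over all settings tried ran from 0.00135 to 0.0792 in dDG and from 0.00277 to 0.104 in vCA1.

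**Figure D3:**
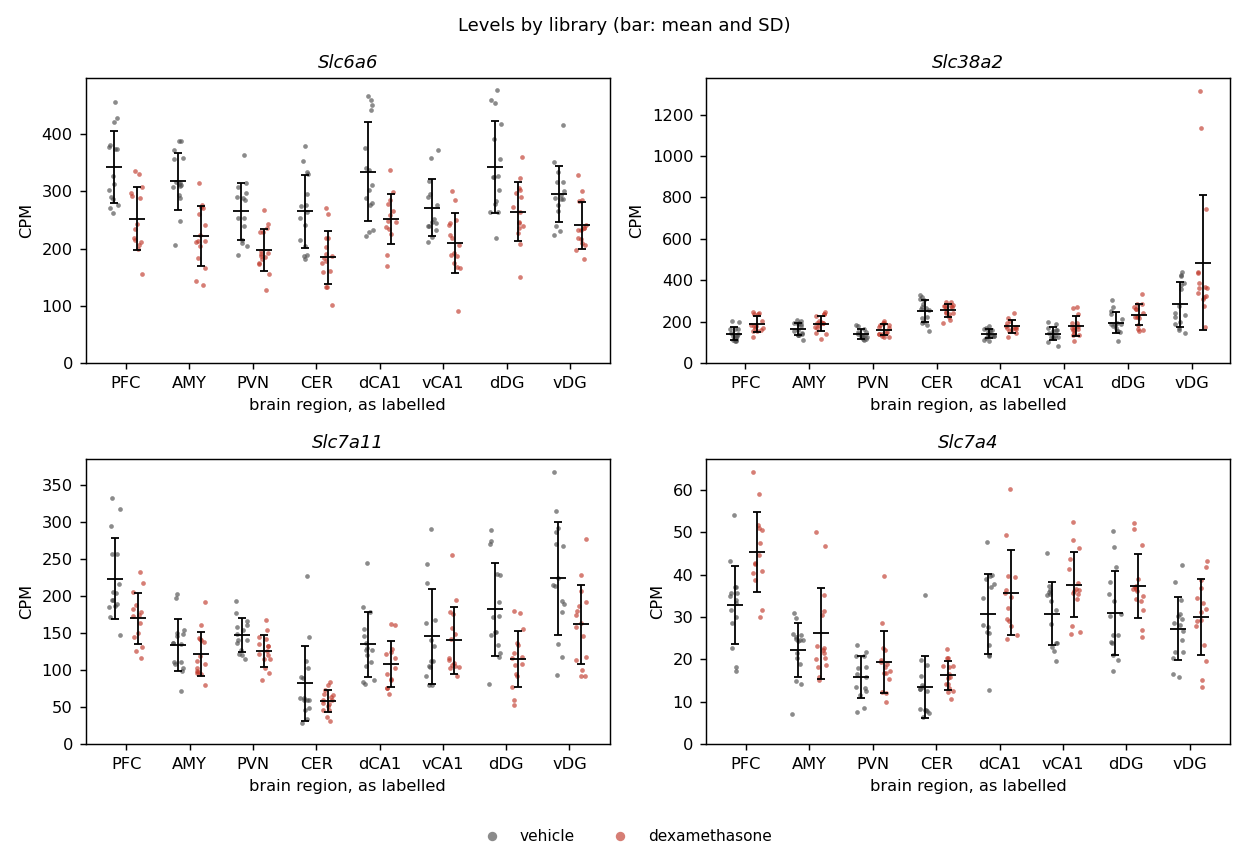
CPM in each library (points) of Slc6a6, Slc38a2, Slc7a11 and Slc7a4 by region and arm, with mean and SD as bars. The treated mean is lower for Slc6a6 and Slc7a11 and higher for Slc7a4 in each region, arms overlap, and 3 treated vDG libraries at 742 to 1313 CPM lie apart for Slc38a2.

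Slc38a2, the sodium-coupled carrier SNAT2 that loads neutral amino acids including glutamine, rose in PFC, dCA1 and vDG. It lies on chromosome 15 at 96687394 to 96699698 (ENSMUSG00000022462). PFC libraries had a median of 131 CPM in vehicle (104 to 201) and 177 CPM after dexamethasone (127 to 245), a difference of 0.41 on the log2 scale (SE 0.10, adjusted p = 0.0065). In dCA1 the means were 142 ± 21.5 and 177 ± 30.1 CPM, a change of 0.31 (adjusted p = 0.0379), and 3 of 10 settings tried ended that call while the value stayed between 0.29 and 0.32 (adjusted p from 0.0137 to 0.0578). CER gave 251 ± 54.2 and 255 ± 30.8 CPM, a change of 0.03.

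The vDG value of Slc38a2, 0.79 (SE 0.23, adjusted p = 0.0458), rested on few libraries. Treated libraries 3, 4 and 14 held 742 to 1313 CPM, and the other 27 vDG libraries 143 to 441 CPM. The same 3 libraries held 97.4 to 137 CPM of Slc6a13, against 4.45 to 60.7 CPM in the others, and 5.46 to 5.86 on the pericyte and meninges list against 3.94 to 5.56. Without them the log2 fold change was 0.28 (adjusted p = 0.55). Without libraries holding 10 CPM or more of Gabra6 it was 0.73 (adjusted p = 0.108), and adjusted p over all settings ran from 8.37e-05 to 0.55.

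Slc7a11, the light chain xCT that takes up cystine in exchange for glutamate, fell in PFC and dDG. It lies on chromosome 3 at 49892526 to 50443614 (ENSMUSG00000027737). In dDG the median went from 172 CPM (81.1 to 289) to 116 CPM (52.2 to 179), a difference of -0.67 on the log2 scale (SE 0.16, adjusted p = 0.0101), and 13 of 15 treated libraries lay below the vehicle median. In PFC the means were 223 ± 55.2 and 170 ± 34.3 CPM, a change of -0.40 (SE 0.11, adjusted p = 0.0126). The value was negative in all 8 regions and -0.06 in vCA1. In PVN it was -0.22 (edgeR, adjusted p = 0.175), and passed with the replicate number as a block, at -0.24 (adjusted p = 0.0206). In dDG the choroid plexus list differed by -0.99 between arms (adjusted p = 0.536) and ranged from 201 to 16446 CPM summed over 8 genes in vehicle libraries. With it and the meninges list as covariates the dDG value was -0.47 (adjusted p = 0.0724), and without RIN under 5 it was -0.60 (adjusted p = 0.0863), where all settings ran from 0.0042 to 0.0863.

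A single region carried the calls of 2 further SLC7 genes. Slc7a4, a member without a settled substrate, rose in PFC from 32.9 ± 9.27 to 45.4 ± 9.53 CPM (log2 fold change 0.46, adjusted p = 0.0181), and was positive, at 0.13 or more, in the other 7. Its PFC median was 33.9 CPM in vehicle (17.3 to 54.0) and 43.6 CPM after dexamethasone (30.1 to 64.3), and 12 of 14 treated libraries lay above the vehicle median. It shares 13.9% of its exon bases with P2rx6 on the other strand, to which 303 counts were given. Slc7a6, a light chain called y+LAT2, rose in AMY from 13.1 ± 3.96 to 19.0 ± 6.43 CPM (log2 fold change 0.60, adjusted p = 0.028), and 3 of 8 settings ended the call while the value stayed between 0.55 and 0.61 (adjusted p from 0.0213 to 0.0662).

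No member passed the test that the response differs among the 8 regions, where 1.18% of all genes passed. With edgeR, 0 of 42 members passed and 2 had an unadjusted p under 0.05. With limma and animal as a random block, 0 passed and 1 had such a p. The lowest adjusted p was 0.295, for Slc38a2. A miss of the threshold does not show that the regions responded alike.

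The mean response over the 8 regions was fitted over all libraries (limma voom with animal as a random block). Of 42 members 10 passed (20.9% of all genes), 2 higher (10.1%) and 8 lower (10.9%). The 2 higher were Slc38a2 at 0.30 (SE 0.051, adjusted p = 1.59e-07) and Slc7a4 at 0.28 (SE 0.059, adjusted p = 4.93e-05). Without the 3 vDG libraries that lie apart, Slc38a2 was at 0.27 and still passed. The median over the tested members was -0.01, as over all genes, and 23.8% of the members passed.

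**Figure D4:**
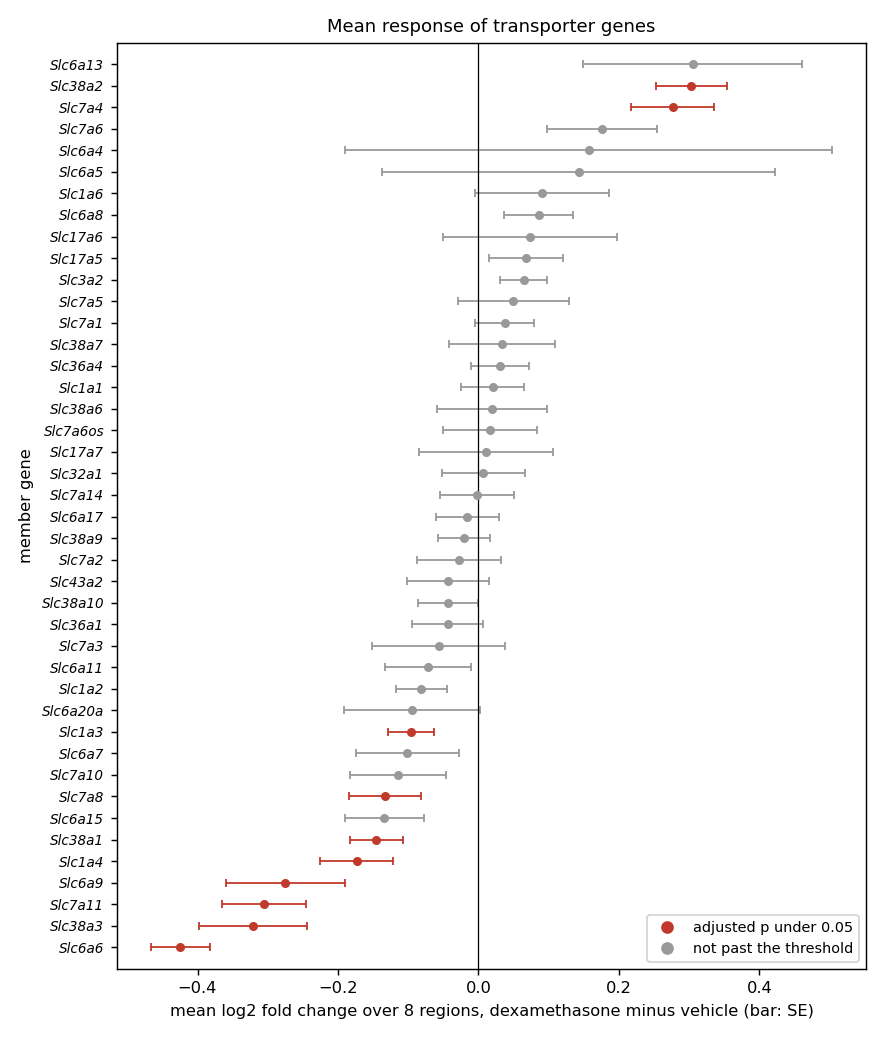
Mean log2 fold change over 8 regions with SE bars for the 42 members tested (rows, ordered by value). Red points have an adjusted p under 0.05: Slc38a2 and Slc7a4 to the right of 0 and 8 members to the left, Slc6a6 farthest at -0.42.

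Among the 8 lower members, Slc6a6 stood at -0.42 (limma, SE 0.042, adjusted p = 1.45e-18) and Slc7a11 at -0.31 (SE 0.06, adjusted p = 9.91e-06). Slc38a3, the glial glutamine exporter SNAT3, was at -0.32 (SE 0.076, adjusted p = 0.000352) and negative in all 8 regions, from 24.4 ± 13.9 to 14.8 ± 6.31 CPM in dCA1, where the value of -0.61 did not pass alone. Slc6a9 (GlyT1) was at -0.28 (SE 0.085, adjusted p = 0.0086), with 25.1 ± 10.6 and 18.7 ± 7.42 CPM in PFC where the value was -0.48 and did not pass alone. It shares 27.8% of its exon bases with Ccdc24, which had 34 counts. Slc38a1, the neuronal glutamine importer SNAT1, was at -0.15 (SE 0.038, adjusted p = 0.00122), and Slc1a4, the serine and alanine carrier ASCT1, at -0.17 (SE 0.052, adjusted p = 0.00654). Slc1a3 (GLAST) at -0.10 (SE 0.033, adjusted p = 0.0203) and Slc7a8 (LAT2) at -0.13 (SE 0.051, adjusted p = 0.0478) were the smallest. The last pair lost their calls in some settings, Slc1a3 at -0.08 without the 3 vDG libraries (adjusted p = 0.0632, range 0.00825 to 0.0632) and Slc7a8 at -0.12 there (adjusted p = 0.0953, range 0.0143 to 0.0953).

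By role, 1 of 4 carriers of GABA, taurine and creatine passed in the mean response, 3 of 7 of the SLC38 family, 3 of 10 of the SLC7 family and 2 of 5 of the SLC1 family, beside 20.9% of all genes. These groups are small, and their counts are no result about a role. In the same test, 0 of the 4 vesicular members tested passed, with Slc17a7 and Slc32a1 at 0.01 each, Slc17a5 at 0.07 and Slc17a6 at 0.07, although the SE of Slc17a6 was 0.124. The mean of Slc17a7 (SE 0.095) joined 4 positive and 4 negative regions, from -0.75 to 0.51, none of which passed. Slc1a2 (GLT-1) was at -0.08 (adjusted p = 0.104) and negative in 8 of 8 regions. Slc6a11 (GAT-3) was at -0.07, from -0.60 in vDG to 0.14 in AMY, and Slc6a8, the creatine transporter, at 0.09. The heavy chain Slc3a2 was at 0.06 and the LAT1 light chain Slc7a5 at 0.05, neither past the threshold. Of the SLC36 pair and the orphan SLC6 carriers Slc6a15, Slc6a17 and Slc6a20a, none passed.

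Cell type markers moved beside these values. The level of the endothelium list, of 10 genes all with counts, fell by 0.33 to 0.63 in 8 of 8 regions (permutation tests of its mean log2(CPM + 1), adjusted p of at most 0.0156), from a summed 267 to 1042 CPM in vehicle to 230 to 592 CPM in treated libraries. The list of 7 microglia genes fell by 0.45 to 0.63 in 8 of 8 (adjusted p of at most 0.00679), from 221 to 958 CPM to 133 to 495 CPM. By the median of each list, 0 of 8 regions passed for both. Within the lists, Cx3cr1 at -2.39 to -2.03, P2ry12 at -1.17 to -0.70, Flt1 at -0.80 to -0.55 and Slco1a4 at -0.94 to -0.62 passed in 8 regions each, while Csf1r, C1qb, Pecam1 and Ly6c1 passed in no single region. In the mean response 7 of 9 endothelium genes passed beside 20.9% of all genes, 6 lower, among them Cldn5 at -1.41 and Pecam1 at -0.17, and 1 higher, Ly6c1 at 0.19. Of 7 microglia genes 4 passed there, all 4 lower. The astrocyte list, of 10 genes, passed in 0 of 8 by its mean (-0.23 to -0.05) and in 8 of 8 by its median, and its genes went both ways. Sox9 fell in 8 regions, by 0.67 to 1.20, and Aqp4 in 1, while Aldh1l1 (0.21 to 0.72) and Fgfr3 (0.01 to 0.40) were positive in all 8 and passed in 1 region each. In the mean response 5 of its 10 genes passed beside 20.9% of all genes, 2 as higher (Aldh1l1 at 0.36, Fgfr3 at 0.21) and 3 as lower, with Sox9 and Aqp4 (-0.30) as the largest. The list of 7 oligodendrocyte genes passed in 0 of 8 regions (-0.48 to 0.02), and in the mean response 4 of its 7 genes passed as lower, Mog at -0.40, Mag at -0.32, Cldn11 at -0.23 and Cnp at -0.22, with a list median of -0.22, beside 10.9% of all genes called lower. Neurons passed in 0 of 8 (-0.02 to 0.10). In vCA1 the dentate list was higher by 0.87 (adjusted p = 0.0269) and the excitatory list lower by 0.30 (adjusted p = 0.0109). With the dentate level, here of the list without Prox1, as a covariate, Slc6a6 in vCA1 was at -0.44 (edgeR, adjusted p = 0.0594). The part of the endothelial, microglial, astrocyte and oligodendrocyte lists in the members' values was not tested.

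The 6 members too low for the filter were Slc43a3, Slc38a5, Slc1a5, Slc6a3, Slc17a8 and Slc38a11. Slc43a3, a purine base carrier of endothelium, reached the level of 2 CPM through its treated libraries, with 3.35 CPM over their summed counts against 1.03 CPM over those of vehicle libraries. Its difference between arms is therefore given as a description, with no test. It had 90 counts in 118 vehicle libraries, of which 64 were at 0, and 289 in 117 treated libraries, of which 18 were at 0. In AMY the medians were 0 CPM (highest 2.38) and 2.49 CPM (highest 10.9), and the arms overlapped.

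Slc38a5, the glutamine carrier SNAT5, passed as lower in 3 regions in a fit with no filter, at -2.07 in PFC (adjusted p = 0.00159), -1.63 in CER and -1.54 in AMY. PFC vehicle libraries held 3.16 ± 1.51 CPM (1.26 to 6.26), with 0 of 15 at 0, and treated ones 0.651 ± 1.11 CPM, with 10 of 14 at 0. In dDG, where it was highest, the means were 9.66 ± 6.20 and 9.75 ± 3.90 CPM and the value was -0.10. Its mean response with no filter was -0.80 (limma, SE 0.131, adjusted p = 1.37e-07), a mean that includes dDG at -0.10 and dCA1 at -0.29. Its levels in PFC, AMY and CER lay near or below the limit of 3 counts, worth 2.07 to 11.2 CPM by library. Slc1a5, the neutral amino acid exchanger ASCT2, had a mean response of 0.46 (adjusted p = 0.00987) and passed in no single region. Slc6a3 passed in PVN at 2.84 (adjusted p = 0.0413), where 113 of its 126 treated counts came from 1 library at 182 CPM, and without that library the value was -0.30 (adjusted p = 0.868). Slc17a8 and Slc38a11 passed in no region.

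**Figure D5:**
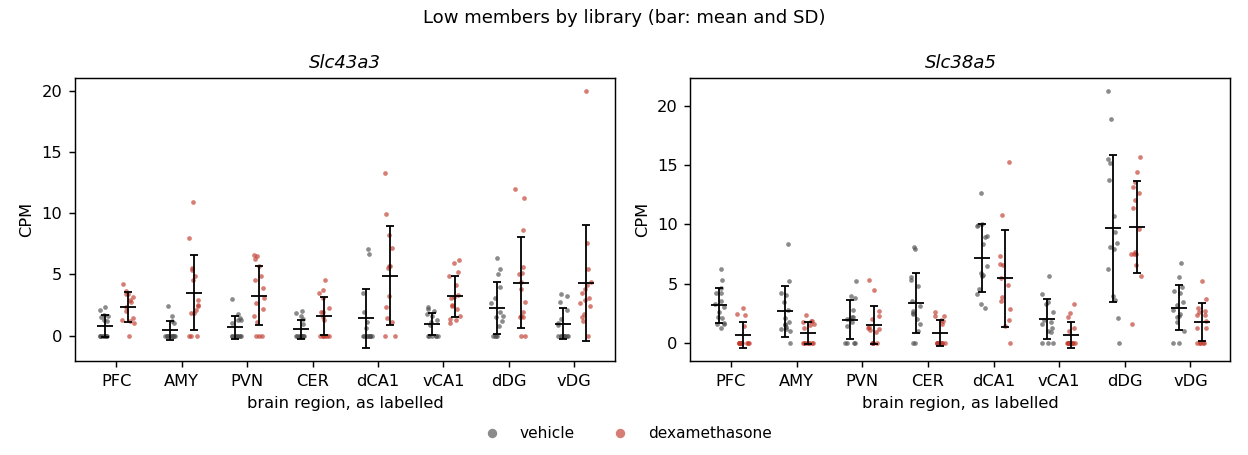
CPM in each library (points) of Slc43a3 and Slc38a5, 2 of the low members, by region and arm, with mean and SD as bars. Most vehicle points of Slc43a3 lie at 0 or near it, and Slc38a5 is at 0 in 10 of 14 treated PFC libraries while dCA1 and dDG stay higher.

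Genes that work with the carriers were read from lists written with earlier results of these data known. Of 12 enzymes of glutamate, glutamine and GABA, 9 or 10 were tested per region and 1 passed anywhere, Prodh, which degrades proline, at 0.65 in vDG, where 3.93% of all genes passed. In the mean response 1 of 11 passed beside 20.9% of all genes, Prodh at 0.26. A further list held 20 genes of mTORC1 and its control, not all of them amino acid sensors. Exactly 2 passed in each of the 8 regions, where 3.65% to 6.18% of all genes passed. These were Ddit4, an mTORC1 inhibitor, at 0.96 to 1.72, and Sesn1, of the sestrin family of mTORC1 inhibitors, at 0.34 to 0.82. No other gene of the list passed in a single region. In the mean response 4 of 19 passed, near the 20.9% of all genes, the same pair upward, and Rragd at -0.19 and Sesn3 at -0.13 downward.

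Of 17 amino acid response genes linked to ATF4, 10 were tested per region. Mthfd2, a mitochondrial folate enzyme, rose in 8 of 8 regions, by 0.90 in CER to 2.86 in dCA1, and Cebpb, a transcription factor, in 6. Vldlr, a lipoprotein receptor, fell in CER and dCA1, by 0.41 and 0.34. In the mean response 6 of 14 passed beside 20.9% of all genes, 3 higher and 3 lower, with Mthfd2 at 2.15, Cebpb at 0.68, Ddit3 at -0.26 and Sesn2 at 0.24 as the largest, and the median of the 14 was -0.01, and that of all genes was -0.01. Of 10 genes of glycine, serine and branched chain metabolism, Gldc, of glycine cleavage, fell in PFC, dCA1 and vCA1, by 0.69, 0.75 and 0.70, and Bcat1, a branched chain transaminase, rose in CER and dCA1, by 0.40 and 0.61. In the mean response 2 of 8 passed beside 20.9% of all genes, Gldc at -0.55 and Bcat1 at 0.35.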

How the data were processed

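Transcripts in 118 vehicle and 117 treated libraries from 30 mice were measured with a 3' end kit (QuantSeq forward) with unique molecular identifiers, per the labels' protocols. The deposited table holds raw counts per gene. Per the submitters' processing notes, FastQC 0.11.4, cutadapt, UMI-tools 0.5.4, STAR 2.6.0a and featureCounts 1.6.4 were used with mm10. The strand setting and annotation release are not given in the sources used here, so overlapping genes cannot be told apart. Symbols of 27645 genes and the comparison of coordinates came from GENCODE M21 (99.9% overlapped their GRCm38 position). The result for 1 gene that meets the rule for members is not reported here, and it is left out of every count of members. The members and all gene lists were chosen with earlier results of these data known.

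Genes passing filterByExpr were scaled with TMM and tested with edgeR 4.0.16 (quasi-likelihood) within each region, without covariates. The mean response used limma 3.58.1 voom with animal as a random block (consensus correlation 0.0198), and vehicle regions edgeR with animal as a block. P-values were Benjamini-Hochberg adjusted over all genes, with a threshold of 0.05. SE is the absolute log2 fold change over the square root of F. Marker levels were compared with two-sided permutation tests (100000 permutations). Alternatives were DESeq2 1.42.0, other scalings, filters and covariates, and leaving out libraries. Scripts were tested on simulated data. R 4.3.3, Python 3.11.15 and scipy 1.17.1 were used.

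Members with full statistics are those past the threshold in 2 or more regions, in the test among regions, or among the 10 largest mean responses past the threshold, and members past it in 1 region are given with that region. By region, the 3 highest and the lowest members past the threshold are named. Per other list, up to 4 genes past the threshold are named. Labels give animals, so p-values of the arms within a region measure the spread between animals. Those among vehicle regions measure the spread within animals. The mean response used 1 correlation of animal for all genes (0.0198), so its p-values rest mostly on the spread among libraries. Intervals and floors cover counting error only. No 2 libraries of a group agreed within sampling noise (smallest chi-square per degree of freedom 1.34).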

Additional observations from a re-analysis of the deposited data

How the results depend on the processing

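No result of the fits with the filter on low counts reversed under the alternatives run. Slc6a3 in PVN, called only with no filter (2.84), reversed to -0.30 without treated replicate 2. Slc6a6 in AMY, CER, PFC, PVN and dCA1, and Slc38a2, Slc7a11 and Slc7a4 in PFC kept their calls under all alternatives run there. With at least 10 counts in every library, the genes passing fell to 345 in PFC (565 as reported), 293 in AMY (483), 290 in vCA1 (498), 286 in PVN (526), 286 in CER (558), 233 in dCA1 (411), 195 in vDG (366) and 188 in dDG (312), where fewer genes were tested. Members passing in AMY (2 as reported) were 1 with at least 10 counts, without RIN under 5 and with choroid plexus and meninges levels as covariates. In CER (1) they were 2 with no filter. Members passing in PVN (1) were 2 with date and plate as factors. In dCA1 (2) they were 1 without RIN under 5, 4 with the dentate level and 1 with choroid plexus and meninges levels as covariates. In dDG (2) they were 1 with no filter, 0 without RIN under 5 and 1 with choroid plexus and meninges levels. In vCA1 (1) they were 2 without Gabra6 libraries, and 0 with at least 10 counts, without RIN under 5, with the dentate level and with choroid plexus and meninges levels, and the dentate level left 281 of all genes. In vDG (1) they were 2 with DESeq2, date and plate or the dentate level, 3 with choroid plexus and meninges levels, and 0 with upper-quartile factors, with at least 10 counts and without Gabra6 libraries. Counts with no filter are not given for AMY, PFC, PVN, vCA1, vDG and the mean response. They would include Slc43a3, which met the level of 2 CPM through its treated libraries. With no filter, Slc38a5 was also called in AMY, CER and PFC. The cause of these changes was not tested. Members in the mean response were at least 8 under the alternatives (10 as reported), and 0 passed among regions under every alternative. By the median of each marker list, 9 tests passed (18 by the mean). Slc7a6 in AMY lost its call with no filter (adjusted p = 0.0538).

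Same-numbered vehicle and treated libraries of a region come from different animals, but by the labels they shared the plate in 115 of 115 pairs and the punching date in 109. Their deviations from the group means correlated with region medians of 0.055 to 0.246, against -0.032 to -0.003 for other numbers. The correlation was over 0.1 in 78 of 115 pairs, with a lowest value of -0.165, and 34 of 118 vehicle libraries were closest to their own number. The fits as reported carry no block. With the replicate block, 549 of all genes passed in dDG, and members passing were 2 in each of CER, PVN and vDG. The added calls were Slc6a5 in CER (0.77, adjusted p = 0.049), Slc7a11 in PVN and Slc6a6 in vDG, and no member lost its call in a region. The limit of 3 counts, worth 2.07 to 11.2 CPM by library, bounds what can be read of the 6 low members. Alternatives with choroid plexus and meninges covariates, and without libraries of vDG, PVN or with Gabra6, were chosen after seeing the data.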
